A study of Mus musculus with 47 samples.

Results

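The 8 cultures described here are the 4 cultures of control cells and the 4 cultures of m.11,944 60% cells, out of 47 samples in the series, divided by replicate number into replicates 3 and 4 against replicates 1 and 2. Each side of the division holds 2 control and 2 m.11,944 60% cultures, so that any difference between the sides can be read separately in each line. All 8 are B78-D14 cells, a mouse amelanotic melanoma line derived from B16 that lacks Cdkn2a, grown in culture with no treatment on their labels, and RNA was taken from bulk cell pellets and measured by RNA-seq. The m.11,944 60% cells are an edited population, made with a mitochondria-targeted TALE-DdCBE base editor, in which about 60% of the mitochondrial DNA copies carry a truncating change at m.11,944 in mt-Nd5, a complex I subunit gene. Control cells are the wild-type counterpart with the same nuclear background. The cultures were chosen by their gene counts, since expression in these same cultures had been seen to separate along this division. The difference between replicates 3 and 4 and replicates 1 and 2 is therefore given as a description, with no test, whereas tests are kept for what the division did not use: whether the lines differ in the size of the difference, and how replicates differ on the same side of it. The labels do not say what sets the replicate numbers apart. Density, passage, medium age and day of collection were not given in the sources used here, so a state of the cultures and a batch cannot be told apart.

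Cells that run short of amino acids, or that carry stress in the endoplasmic reticulum or the mitochondria, share a common relay called the integrated stress response. Kinases slow protein synthesis through eIF2 alpha, translation of the transcription factor Atf4 goes up, and Atf4 with its partners switches on amino acid transporters, aminoacyl-tRNA synthetases and enzymes that make serine, asparagine and one-carbon units, along with the factors Ddit3, Atf3 and Trib3. Proliferating cells instead run the E2F program of DNA replication genes and the later program of mitosis genes, and the sterol-sensing factor Srebf2 turns on cholesterol synthesis and uptake when membranes are being built or sterols are scarce.

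Letter motifs of these programs were looked for on both strands in the 250 bases before the RefSeq start of each gene (build GRCm38.p6). The windows below come from genes of the 3 programs that differed most, chosen after their values were seen, and each is printed 5′ to 3′ on the gene's strand with the matched letters in capitals. The Atf3 (chr1:191183416-191183463, minus strand), Asns (chr6:7693210-7693252, minus strand) and Nupr1 (chr7:126625553-126625600, minus strand) windows hold the letters TGATGNAA of the combined C/EBP and ATF element. The Cdc6 (chr11:98907993-98908040, plus strand) and Mcm5 (chr8:75109340-75109387, plus strand) windows hold the E2F letters TTTCCCGC or TTTGGCGC. The Hmgcs1 window (chr13:119690194-119690242, plus strand) holds the sterol element letters TCACNCCAC.
Atf3: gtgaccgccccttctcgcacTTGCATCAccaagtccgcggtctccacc
Asns: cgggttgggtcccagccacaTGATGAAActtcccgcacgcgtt
Nupr1: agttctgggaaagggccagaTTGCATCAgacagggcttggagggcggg
Cdc6: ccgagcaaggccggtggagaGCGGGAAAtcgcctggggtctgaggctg
Mcm5: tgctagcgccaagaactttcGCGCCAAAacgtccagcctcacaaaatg
Hmgcs1: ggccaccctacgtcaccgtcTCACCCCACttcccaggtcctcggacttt
The C/EBP and ATF letters stood in 8 of 32 integrated stress response promoters (25%), against 231 of 9591 promoters of all tested genes (2.41%). The E2F letters stood in 7 of 37 DNA replication promoters (18.9%), against 2.95% of all. The sterol letters were found in 1 of 20 cholesterol promoters (5%), against 1.21%. The heat shock element is 3 alternating blocks of GAA and TTC with 2 bases between them. It stood in 2 of 17 heat shock protein promoters (11.8%), against 0.417%. Those were Hspd1 and Hspe1, at log2 differences of 0.47 and 0.16, and neither was counted higher by the rule given below. Whether their windows hold the same stretch was not checked. A match describes letters in a window and says nothing of whether a factor was bound.

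Sequencing depth was similar on both sides, with 25249060 to 28289240 counted reads in replicates 1 and 2 and 25619505 to 36173502 in replicates 3 and 4. Values below are CPM, a gene's read count scaled by TMM to a common library size, and differences are on the log2 CPM scale with a prior count of 2, each the mean of both lines' own differences with its standard error from a fit of line and side (n = 8 cultures). After filtering of low counts, 13532 genes were compared. Marker genes of the melanocyte lineage were nearly absent, with Tyr and Slc45a2 at 0 reads in every culture and Mitf carrying most of the summed level, which lay between 13.4 and 23.3 CPM in replicates 1 and 2 and between 7.90 and 10.1 CPM in replicates 3 and 4. Leukocyte markers summed to 2.44 to 5.10 CPM in all cultures, with 5 of 14, Cd3e and Tyrobp among them, at 0 reads throughout. Endothelial and fibroblast markers summed to 1537 to 2314 CPM and 609 to 1575 CPM, nearly all of it Col3a1, with Emcn at 0 reads. The part of other cells in the results was not tested, and in bulk cultures fewer cells of a kind and less RNA per cell cannot be told apart. The edited gene, mt-Nd5 (GRCm39 chrM:11742-13565, plus strand), held 134, 164, 423 and 225 CPM in control replicates 1 to 4 and 159, 178, 533 and 244 CPM in the m.11,944 60% replicates of the same number, and these counts do not read the edit itself.

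The side of the division was the main source of variation among the cultures. The first principal component carried 71.5% of the variance and placed replicates 1 and 2 between −53.8 and −37.7 and replicates 3 and 4 between 36.5 and 57.8. Control replicates lay at −53.5, −53.8, 57.8 and 36.5 and m.11,944 60% replicates at −37.7, −38.8, 50.2 and 39.2. The second component, with 11.9%, separated the lines within replicates 1 and 2, at 21.6 and 22.2 in control cells against −24.2 and −23.6 in m.11,944 60% cells. A gene was counted as higher or lower in replicates 3 and 4 where the difference was at least 0.5 in each line in the same direction and the 4 cultures of each side did not overlap. By that rule 1853 of 13532 genes (13.7%) were higher and 2047 (15.1%) were lower, and with no overlap alone, at any size, 7108 (52.5%) were separated. Genes just inside the limit were Gzf1, Gm16310 and Gm37486, at 0.50004, 0.5005 and 0.5006 in the line with the smaller difference, and just outside were Galns, Glyr1 and Gm10086 at 0.4998, 0.4998 and 0.4995. The median of all genes was −0.01, and the list medians below are read against it. List counts are read against the 13.7% higher and 15.1% lower of all genes. Some genes stand in more than 1 list, Anln, Ero1a, Myc and Sqstm1 among them.

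**Figure D1:**
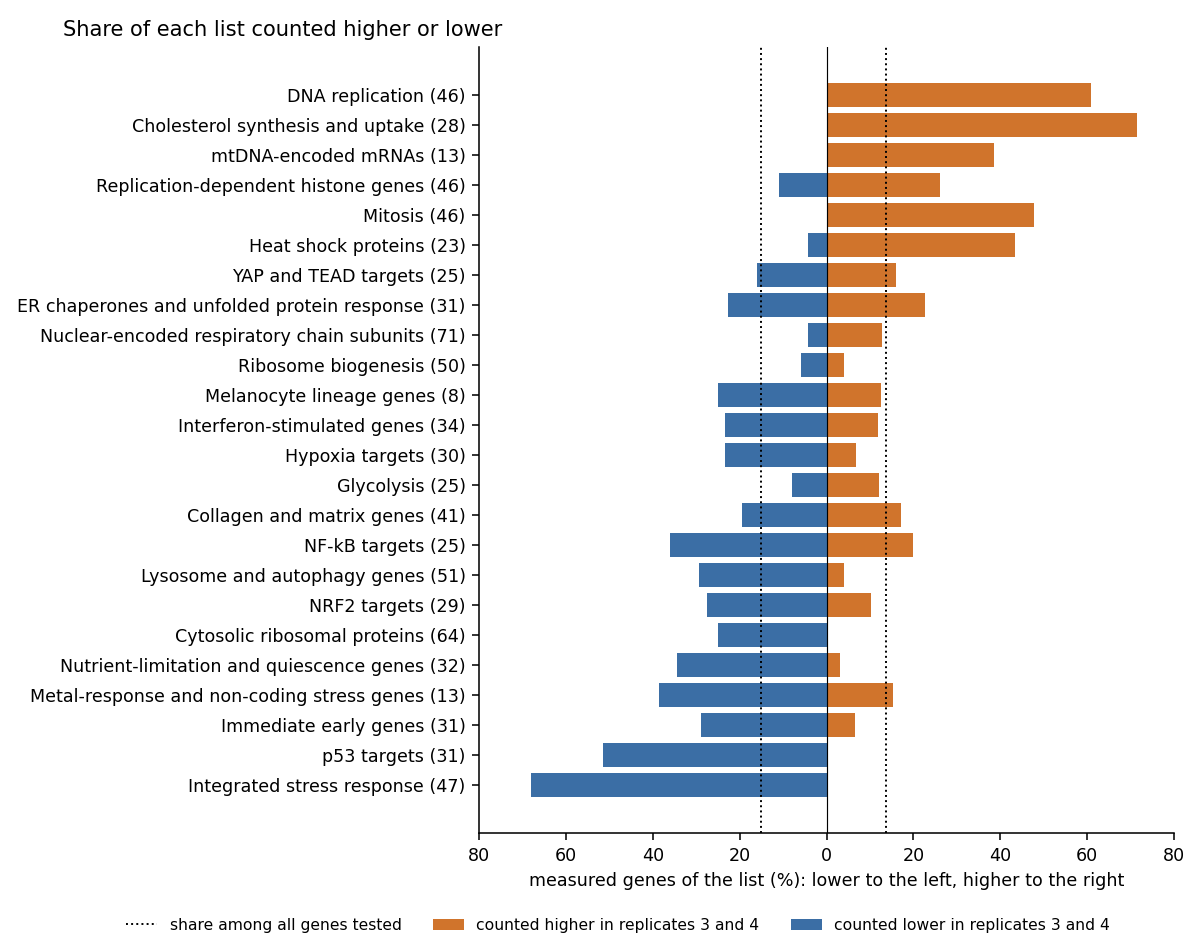
Share of the measured genes of each gene list (number measured in brackets) counted higher in replicates 3 and 4, to the right, or lower, to the left, in percent. Dotted lines mark the shares among all genes tested, 13.7% and 15.1%. Cholesterol, DNA replication and mitosis lists reach furthest to the right, with 71.4%, 60.9% and 47.8%, and the integrated stress response and p53 target lists furthest to the left, with 68.1% and 51.6%.

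Genes of the integrated stress response were lower in replicates 3 and 4 of both lines. Of 47 measured genes, 32 were counted lower and 0 higher, with a median difference of −1.50, against −0.01 for all genes and 15.1% of all genes counted lower. The list's mean level was 7.46 to 7.63 log2 CPM in replicates 1 and 2, and 5.55, 6.33, 5.20 and 6.03 in control replicates 3 and 4 and m.11,944 60% replicates 3 and 4. The median was −1.24 in control cells and −1.52 in m.11,944 60% cells. Without replicate 3 of both lines it was −0.997 and 31 genes were counted lower.

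Atf4, the transcription factor at the center of the response, held 835 and 857 CPM in control replicates 1 and 2, 356 and 543 CPM in control replicates 3 and 4, 791 and 808 CPM in m.11,944 60% replicates 1 and 2, and 222 and 442 CPM in m.11,944 60% replicates 3 and 4. The sides did not overlap, and the difference was −1.15 ± 0.28 (SE). Its downstream factors differed more. Ddit3, the factor also called CHOP (GRCm39 chr10:127124268-127132163, plus strand), held 124 and 119.3 CPM against 3.73 and 7.56 CPM in control cells and 86.6 and 85.7 CPM against 3.91 and 6.65 CPM in m.11,944 60% cells, a difference of −4.28 ± 0.30. Atf3, a stress-induced repressor and activator of the same family (chr1:190902493-190950241, minus strand), held 113 and 112 CPM against 1.79 and 5.29 CPM, and 60.9 and 63.4 CPM against 2.15 and 3.86 CPM, a difference of −4.78 ± 0.42. In all 3 genes replicate 3 was the lowest culture of its line and replicate 4 the next.

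Feedback genes of the response were lower too. Ppp1r15a, which encodes GADD34, the phosphatase subunit that restores translation (chr7:45172340-45175692, minus strand), held 571 and 583 CPM in control replicates 1 and 2 and 14.4 and 16.3 CPM in replicates 3 and 4, and 283 and 303 CPM against 14.6 and 15.5 CPM in m.11,944 60% cells. The difference was −4.75 ± 0.22, a factor of 27.0. Trib3, a pseudokinase that restrains Atf4 signaling (chr2:152179337-152191958, minus strand), held 519 and 502 CPM against 9.29 and 68 CPM, and 463 and 459 CPM against 6.37 and 32.2 CPM, a difference of −4.67 ± 0.84. The wide error of Trib3 comes with replicate 4 lying above replicate 3 in both lines. Gadd45a, a growth arrest gene listed here with the p53 targets (chr6:67012070-67014441, minus strand), had the most negative difference among genes with a mean of at least 3 log2 CPM, with 307 and 306 CPM against 4.22 and 21.2 CPM in control cells and 225 and 235 CPM against 3.03 and 13.4 CPM in m.11,944 60% cells, a difference of −5.08 ± 0.70.

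The metabolic genes of the list were grouped by role after their values were seen. Of 8 enzymes of amino acid and one-carbon metabolism 6 were counted lower and 0 higher, with Phgdh at −0.33 and Psat1 at −0.13 not counted. Of 9 amino acid transporters 3 were counted lower and 0 higher, and the others, Slc38a2 at −0.08 among them, were not counted. Asns, asparagine synthetase, held 646 and 598 CPM against 198 and 328 CPM in control cells and 675 and 619 CPM against 131 and 293 CPM in m.11,944 60% cells. Slc7a11, the cystine importer, had a difference of −2.58 ± 0.53, Psph of serine synthesis one of −1.45 ± 0.36, and Mthfd2 of the mitochondrial folate cycle one of −0.78 ± 0.23. Aldh1l2, the mitochondrial formyltetrahydrofolate dehydrogenase, held 371 and 376 CPM against 23.3 and 47.1 CPM, and 325 and 328 CPM against 14.4 and 38.6 CPM. Of 10 tRNA synthetase genes 6 were counted lower (Wars1, Sars1, Nars1, Yars1, Eprs1 and Aars1), and Cars1, Gars1, Tars1 and Mars1 were not counted, at −0.59 to −0.03. Chac1, a glutathione-degrading target, was not counted, since its 44.5 CPM in control replicate 4 lay above the 31.3 and 33.5 CPM of control replicates 1 and 2.

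**Figure D2:**
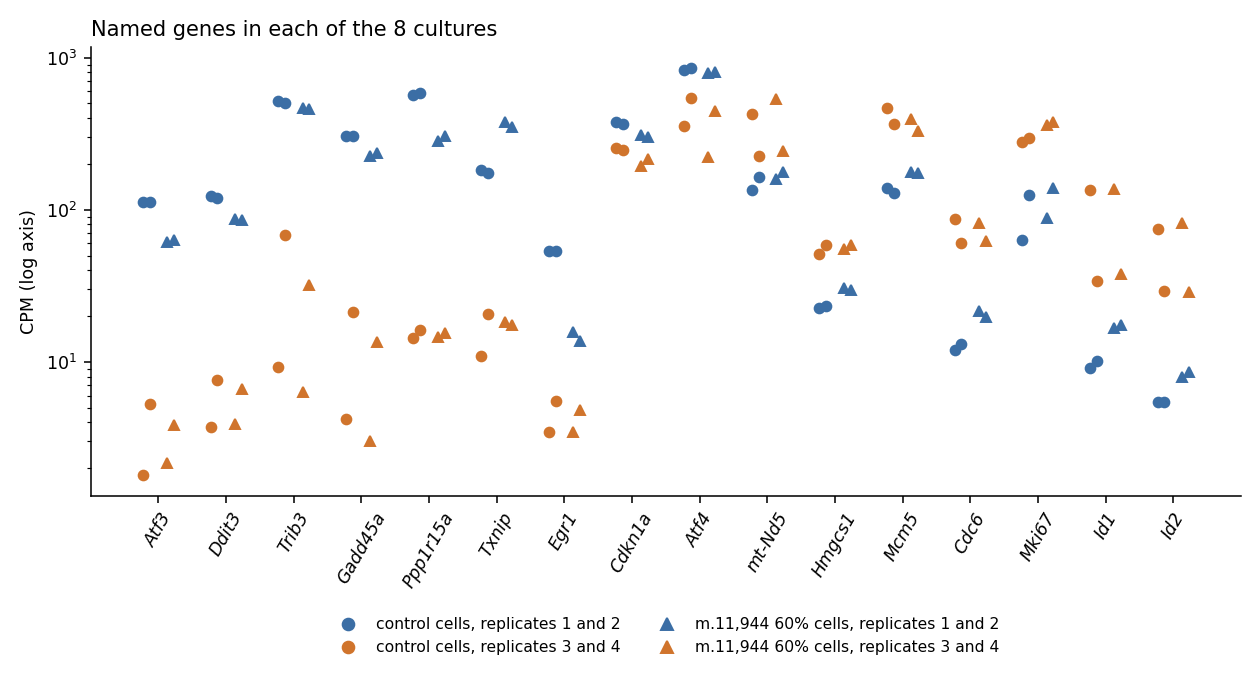
CPM on a log axis for 16 named genes in each of the 8 cultures, with circles for control cells and triangles for m.11,944 60% cells, blue for replicates 1 and 2 and orange for replicates 3 and 4. Stress genes at the left lie lower in orange, from Atf3 with 60.9 CPM or more in blue and 5.29 CPM or less in orange, and sterol, replication and Id genes at the right lie higher in orange.

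Other stress lists split. p53 targets had 16 of 31 genes counted lower (51.6%, against 15.1% of all genes) and 0 higher, with a median of −0.57. Cdkn1a, the cell cycle inhibitor p21, held 375 and 365 CPM against 254 and 246 CPM in control cells and 308 and 301 CPM against 194 and 214 CPM in m.11,944 60% cells, a difference of −0.57 ± 0.03, and Mdm2, the ubiquitin ligase that opposes p53, differed by −0.88 ± 0.12. Both genes were separated without overlap, Cdkn1a with the smaller error. The targets of NRF2, which senses oxidative stress, had 8 of 29 genes lower (27.6%) and 3 higher (10.3%, against 13.7% of all genes). Their median was −0.41. Among them Sqstm1, the autophagy receptor p62, differed by −1.95 ± 0.16, while Hmox1 at −0.44 ± 0.35 and Nqo1 at 0.35 ± 0.13 were not counted. Without replicate 3 of both lines, 5 NRF2 targets were lower and the median was −0.17.

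Endoplasmic reticulum chaperones and unfolded protein response genes had 7 of 31 counted higher and 7 lower, with a median of 0.23. Each count is 22.6%, against 13.7% and 15.1% of all genes. Hspa5, the chaperone BiP, held 1978 and 1978 CPM against 1319 and 1145 CPM in control cells and 1894 and 1965 CPM against 1121 and 1132 CPM in m.11,944 60% cells, a difference of −0.73 ± 0.05. Ern1, the sensor IRE1, had the largest difference of the list, −1.95 ± 0.15, and Xbp1, the factor whose mRNA it splices, had one of −0.15 ± 0.11 and was not counted. The heat shock list holds cytosolic and mitochondrial chaperones, cochaperones and the factors Hsf1 and Hsf2. Of its 23 measured genes 10 were counted higher (43.5%) and 1 lower (4.35%), with a median of 0.47. Hspa8, the constitutive Hsp70 chaperone, held 899 and 834 CPM against 3134 and 2994 CPM in control cells and 1308 and 1280 CPM against 2485 and 2914 CPM in m.11,944 60% cells, a difference of 1.44 ± 0.18. Hsp90aa1, the inducible Hsp90, differed by 0.84 ± 0.08. The gene counted lower was Hspa9, the mitochondrial Hsp70.

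Genes of nutrient limitation and quiescence had 11 of 32 counted lower (34.4%, against 15.1% of all genes) and 1 higher (3.12%, against 13.7%). Their median was −0.50. Txnip, the thioredoxin-interacting protein that limits glucose uptake (chr3:96465267-96469201, plus strand), held 182 and 176 CPM against 11 and 20.8 CPM in control cells and 375 and 350 CPM against 18.2 and 17.5 CPM in m.11,944 60% cells, a difference of −3.95 ± 0.27. Ccng2, a cyclin of resting cells, overlapped between the sides, at 0.01 ± 0.35. The gene counted higher was Cpt1a, the carnitine palmitoyltransferase of fatty acid oxidation. Lysosome and autophagy genes had 15 of 51 lower (29.4%) and 2 higher (3.92%), with a median of −0.36. Neither Ctsd nor Lamp1, lysosomal protease and membrane protein, was counted, at −0.33 ± 0.11 and 0.13 ± 0.09. Hypoxia targets had 7 of 30 lower (23.3%) and 2 higher (6.67%). Vegfa, the vascular growth factor, held 113 and 122 CPM against 29 and 40.1 CPM, and 106.98 and 115 CPM against 21.7 and 24.3 CPM. Glycolysis had 3 of 25 genes higher (12%, against 13.7% of all genes) and 2 lower (8%, against 15.1%). Ldha, lactate dehydrogenase A, was among the 3, at 1581 and 1446 CPM against 3002 and 3181 CPM in control cells and 1681 and 1716 CPM against 2631 and 2900 CPM in m.11,944 60% cells, with Pgam1 and Eno1 the others. Hk2, which starts glycolysis, was not counted, at −0.19 ± 0.08.

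DNA replication genes were higher in replicates 3 and 4 of both lines. Of 46 measured, 28 were counted higher and 0 lower, with a median of 0.94, against 13.7% of all genes counted higher, and 43 of 46 had no overlap between the sides, against 52.5% of all genes. The list's mean level was 5.59, 5.56, 6.75 and 6.53 log2 CPM in control replicates 1 to 4 and 5.82, 5.81, 6.69 and 6.52 in the m.11,944 60% replicates of the same number. Without replicate 3 of both lines 28 were counted and without replicate 4 of both lines 37.

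Mcm5, a subunit of the replicative helicase (chr8:75836140-75856231, plus strand), held 140 and 130 CPM against 467 and 363 CPM in control cells and 178 and 174 CPM against 394 and 329 CPM in m.11,944 60% cells, a difference of 1.32 ± 0.17. Pcna, the sliding clamp of the polymerases, differed by 1.23 ± 0.11. Cdc6, which loads the helicase and whose promoter window with E2F letters is printed above, held 11.9 and 13 CPM against 86.2 and 60.8 CPM, and 21.7 and 19.8 CPM against 82.3 and 62.1 CPM, a difference of 2.16 ± 0.22 and the largest of its list. The order of the cultures was the same in both lines for these genes, with replicate 3 highest, then replicate 4, then replicates 1 and 2.

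Mitosis genes followed, with 22 of 46 counted higher (47.8%, against 13.7% of all genes), 0 lower and a median of 0.53. Mki67, the proliferation marker Ki-67, held 63.6 and 125 CPM against 280 and 294 CPM in control cells and 88.2 and 139 CPM against 361 and 380 CPM in m.11,944 60% cells, a difference of 1.71 ± 0.26. Cdk1, the mitotic kinase, differed by 0.78 ± 0.07 and was counted. Ccnb1, its cyclin partner, differed by 0.55 ± 0.08 and was not, with 0.49 in control cells. The list of replication-dependent histone genes, whose mRNAs lack a poly(A) tail, had 12 of 46 counted higher (26.1%) and 5 lower (10.9%). Only 3 were counted higher where at least 10 reads were required in every culture. It also holds H1f0, a linker histone gene of resting cells whose mRNA has a tail, which was counted lower and gave 86.0% of the list's reads. The list took 0.0844 to 0.129% of all reads in replicates 1 and 2 and 0.0423 to 0.0683% in replicates 3 and 4, and without H1f0 0.0119 to 0.0128% and 0.00878 to 0.0132%, which overlap. H4c4, a histone H4 gene, held between 0.38 and 0.745 CPM in replicates 1 and 2 and between 0.92 and 1.39 CPM in replicates 3 and 4.

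**Figure D3:**
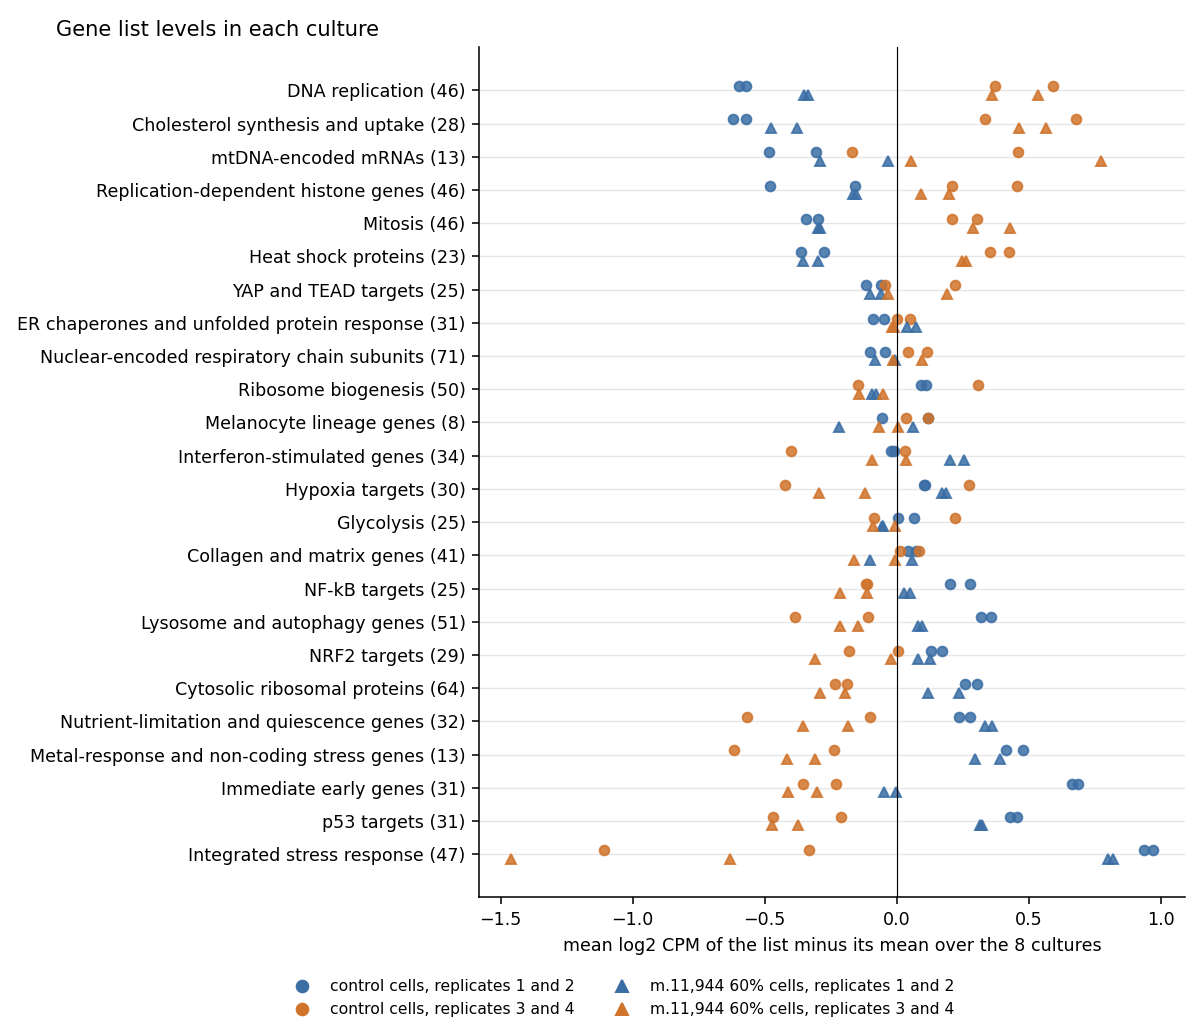
Mean log2 CPM of each gene list in each culture, minus its mean over the 8 cultures, with circles for control cells, triangles for m.11,944 60% cells, blue for replicates 1 and 2 and orange for replicates 3 and 4; lists are ordered by their median difference and the number of measured genes stands in brackets. The integrated stress response list lies furthest left in replicate 3 and second in replicate 4, and DNA replication and cholesterol lists lie to the right in all 4 cultures of replicates 3 and 4.

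Lists of protein synthesis genes did not move together. Cytosolic ribosomal protein genes had 16 of 64 counted lower (25%, against 15.1% of all genes) and 0 higher. Their differences were small but shared, from −0.86 to 0.05 with a median of −0.44. Of the 64, 60 had no overlap between the sides, against 52.5% of all genes. The list took 8.95 to 9.81% of all reads in replicates 1 and 2 and 6.67 to 7.27% in replicates 3 and 4. Rpl3, a large-subunit protein and the largest difference of the list, held 3641 and 3440 CPM against 1724 and 1867 CPM in control cells and 2816 and 3092 CPM against 1632 and 1911 CPM in m.11,944 60% cells. Ribosome biogenesis genes had 2 of 50 higher (4%) and 3 lower (6%). Their median of 0.02 turned to −0.18 without replicate 3 of both lines. Fbl and Ncl, the nucleolar proteins fibrillarin and nucleolin, were not counted, at 0.14 ± 0.07 and 0.12 ± 0.15. Myc, the growth-promoting transcription factor placed in that list, was counted lower, with 982 and 934 CPM against 233 and 266 CPM in control cells and 538 and 495 CPM against 171 and 228 CPM in m.11,944 60% cells. Myc was thus lower in the cultures in which DNA replication genes were higher. The list of metal-response and non-coding stress genes had 5 of 13 counted lower (38.5%) and 2 higher (15.4%), with a median of −0.55. Among its non-coding hosts of small nucleolar RNAs, Snhg12, Zfas1, Snhg1 and Gas5 were counted lower and Snhg15, at −0.83, was not counted. Snhg12 held 86.3 to 141 CPM in replicates 1 and 2 and 7.02 to 13.4 CPM in replicates 3 and 4. Long non-coding RNA took 0.479 to 0.534% of reads in replicates 1 and 2 and 0.33 to 0.344% in replicates 3 and 4. The part of RNA quality or library preparation in these shares was not tested.

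Genes of cholesterol synthesis and uptake had the highest share counted higher of any list, 20 of 28 (71.4%). Of all genes 13.7% were counted higher. The list had 0 lower and a median of 0.90. Hmgcs1, which makes HMG-CoA and whose sterol letters are printed above, held 22.5 and 23.4 CPM against 51.3 and 58.2 CPM in control cells, and 30.8 and 29.5 CPM against 55.1 and 58.3 CPM in m.11,944 60% cells. Its difference was 1.08 ± 0.09, and replicates 3 and 4 lay above replicates 1 and 2 in both lines. Without replicate 3 of both lines 24 genes were counted, and without replicate 4 of both lines 17.

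Lists of signaling and matrix genes were mixed. Immediate early genes had 9 of 31 counted lower (29%, against 15.1% of all genes) and 2 higher (6.45%, against 13.7%). Their median was −0.86 in control cells and −0.32 in m.11,944 60% cells. Egr1, a transcription factor induced by growth signals, held 53.2 and 53.4 CPM against 3.45 and 5.53 CPM in control cells and 15.7 and 13.8 CPM against 3.45 and 4.79 CPM in m.11,944 60% cells. Fos held 1.79 and 3.16 CPM against 0.17 and 0.10 CPM in control cells and 1.10 and 1.58 CPM against 0.19 and 0.22 CPM in m.11,944 60% cells. At Egr1, replicates 3 and 4 of both lines lay close together and the lines stood apart in replicates 1 and 2.

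YAP and TEAD targets had 4 of 25 higher and 4 lower (16% each), near the 13.7% and 15.1% of all genes. Of those higher, Anln also stands in the mitosis and hypoxia lists. Ccn1 was at 0.05 ± 0.33, and Ankrd1, a stretch-responsive target, at −2.46 ± 0.19. Ccn2, another such target, held at most 0.12 CPM in replicates 1 and 2 and 0.41 to 2.99 CPM in replicates 3 and 4. NF-kB targets had 9 of 25 lower (36%) and 5 higher (20%). Nfkbia, the inhibitor of the pathway, was higher by 1.14 ± 0.13. Ptgs2, the prostaglandin synthase COX-2, was lower by the largest margin of the list. Tnfaip3, another inhibitor, held 2.07 to 2.52 CPM in replicates 1 and 2 and 2.93 to 6.10 CPM in replicates 3 and 4. Without replicate 3 of both lines, 8 NF-kB targets were lower and 3 higher.

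Interferon-stimulated genes had 8 of 34 lower (23.5%, against 15.1% of all genes) and 4 higher (11.8%, against 13.7%). The antigen-presenting gene H2-K1 held 32.3 to 35.8 CPM in replicates 1 and 2 and 5.18 to 13 CPM in replicates 3 and 4. Collagen and matrix genes had 7 of 41 higher (17.1%) and 8 lower (19.5%), near the shares of all genes. Fn1, fibronectin, held 4399 to 6188 CPM against 1434 to 2513 CPM, and Mmp3, a matrix-degrading enzyme, 0.68 to 1.96 CPM against 6.95 to 70.6 CPM. Without replicate 4 of both lines, 13 collagen and matrix genes were counted lower.

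Mitf, the melanocyte lineage factor, differed by −1.01 ± 0.17, at 19.9, 22.9, 8.03 and 9.09 CPM in control replicates 1 to 4 and 12.9, 14.3, 7.44 and 9.20 CPM in the m.11,944 60% replicates. Of the metallothionein genes, which bind zinc and copper, Mt2 was counted higher, at 0.82 ± 0.11, and Mt1 was not counted, at 0.22 ± 0.06. In the list of polymerase III and other non-polyadenylated RNAs, only Rny3 of 6 measured was counted, lower. Rn7sk held 3.42 to 6.35 CPM in all cultures. The melanocyte list as a whole had 1 of 8 measured genes higher and 2 lower, with 6 further genes at 0 reads in every culture. Of the cell type marker lists, 1 of 3 measured leukocyte markers was lower (Cd74), and of 5 measured endothelial and fibroblast markers Acta2, smooth muscle actin, was higher and Pdgfrb lower.

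Apart from the lists, genes among the most positive differences of counted genes with a mean of at least 3 log2 CPM were Id2, Inpp4b, Oaf, Donson, Arrb1, Id1 and Mxd3. Id2, an inhibitor of basic helix-loop-helix factors (chr12:25143798-25147282, minus strand), held 5.48 and 5.45 CPM against 74.5 and 29.3 CPM in control cells and 7.99 and 8.54 CPM against 81.5 and 28.6 CPM in m.11,944 60% cells, and Id1 followed the same order of cultures, with 135 and 34.2 CPM in control replicates 3 and 4. Donson, a replication fork protein, differed by 2.51 ± 0.22. Inpp4b, a lipid phosphatase, differed by 2.65 ± 0.22 and Arrb1, beta-arrestin, by 2.45 ± 0.25. The most negative were Gadd45a, Atf3, Ppp1r15a, Trib3, Cdsn, Ddit3, Txnip and Acot2, of which 4 belong to the integrated stress response list. Cdsn, corneodesmosin, held 54 to 57.9 CPM in replicates 1 and 2 and 2.14 to 3.84 CPM in replicates 3 and 4, and Acot2, a mitochondrial acyl-CoA thioesterase, 77.3 to 85.7 CPM and 4.47 to 7.86 CPM.

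Of 71 nuclear-encoded respiratory chain subunits, 9 were counted higher (12.7%, against 13.7% of all genes) and 3 lower (4.23%, against 15.1%), with a median of 0.10. The nuclear complex I subunit Ndufb8 differed by 0.17 ± 0.12 and Sdhb of complex II by 0.10 ± 0.02, and neither was counted. Uqcr11 of complex III had the largest difference, 1.02 ± 0.11. Of 13 mitochondrially encoded mRNAs, 5 were counted higher (38.5%) and 0 lower, with a median of 0.61. mt-Nd1 held 289, 271, 1033 and 556 CPM in control replicates 1 to 4. The mitochondrial count rested on replicate 3, since only 2 genes were counted without control replicate 3, and 2 without m.11,944 60% replicate 3. The mitochondrial share of all reads was 0.269 to 0.362% in replicates 1 and 2, 0.552 and 0.77% in replicate 3 and 0.338 and 0.403% in replicate 4.

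**Figure D4:**
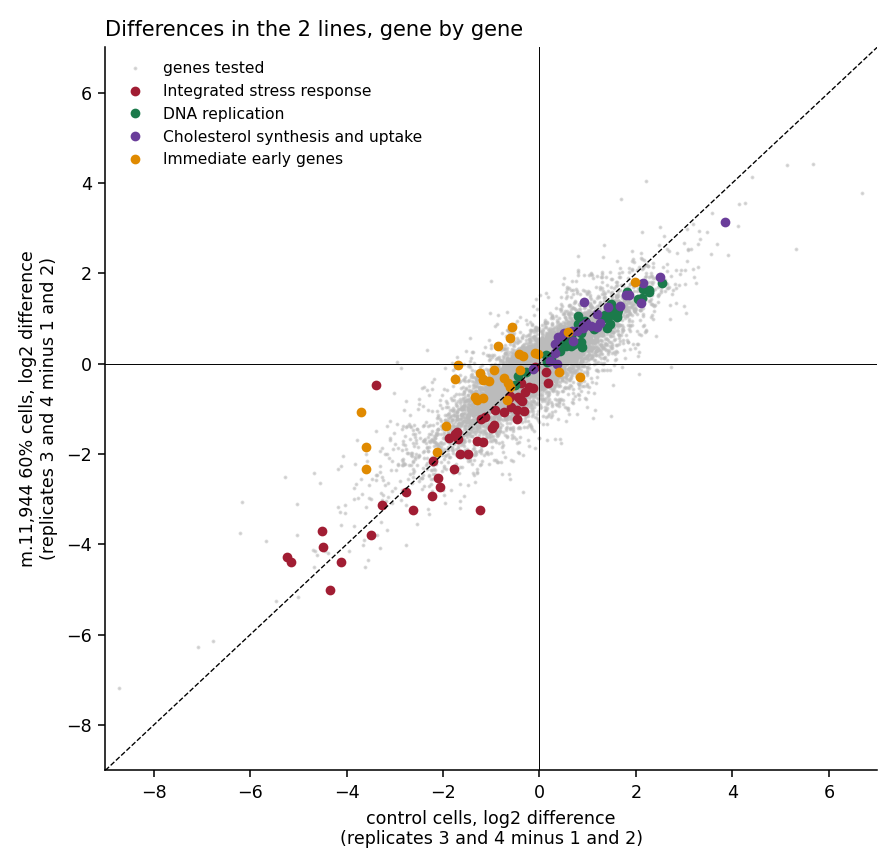
Log2 difference between replicates 3 and 4 and replicates 1 and 2 of each gene in control cells (x axis) against the same in m.11,944 60% cells (y axis), with 4 gene lists in color, grey points for all 13532 genes and a dashed line of equal difference. Most genes of the replication and cholesterol lists lie in the upper right and most stress response genes in the lower left, near the line. Most immediate early genes lie above it.

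Both lines moved in the same direction at most genes. Over the genes, which are not independent of each other, the differences in control cells and in m.11,944 60% cells had a Pearson correlation of 0.88 and a Spearman correlation of 0.86, and 85.8% of genes had the same sign. Of 2571 genes that differed by at least 1 in control cells, 98.1% had the same sign in m.11,944 60% cells and 53.7% also reached 1 there. In all, 549 genes were higher and 831 lower by at least 1 in both lines, and 56 differed by at least 0.5 in opposite directions. The differences were smaller in m.11,944 60% cells, with a median size of 0.38 against 0.47 and a slope of 0.82. The lines share no cultures, and their libraries were not stated to be made separately.

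Whether a gene's difference was unequal in both lines was tested with edgeR's quasi-likelihood test of the line by side interaction, which the division did not use. At an adjusted p under 0.1 it called 42 of 13532 genes (0.31%), 22 with a difference that was more positive in m.11,944 60% cells and 20 more negative, and 1527 genes had an unadjusted p under 0.05. In 41 of the 42 the difference was smaller in size in m.11,944 60% cells, and 37 had the same direction in both lines. In all 42, control replicates 1 and 2 lay outside the range of the other 6 cultures, as they did in 5039 of all tested genes, while m.11,944 60% replicates 1 and 2 did so in 2616 of all tested genes. Blocked by replicate number, the test called 1025 genes (7.57%), 459 more positive and 566 more negative, the 42 among them. The count was sensitive to single cultures. It was 0 without control replicate 1, without control replicate 2, without m.11,944 60% replicate 1 and without m.11,944 60% replicate 2, 6 without m.11,944 60% replicate 3 and 15 without m.11,944 60% replicate 4. It was 940 without control replicate 3 and 1486 without control replicate 4. In each of these fits the lone culture left in a group was taken to vary like the others.

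The 5 genes with the smallest p among those more positive in m.11,944 60% cells were Pvr, Ptgs2, Jun, Il11 and Spp1, each highest in control replicates 1 and 2. Ptgs2 (chr1:149975194-149983978, plus strand) held 1311 and 1287 CPM in control replicates 1 and 2, 388 and 366 CPM in m.11,944 60% replicates 1 and 2, 122 and 94.5 CPM in control replicates 3 and 4 and 101 and 87.4 CPM in m.11,944 60% replicates 3 and 4. Its differences were −3.60 in control cells and −2.01 in m.11,944 60% cells, with an interaction of 1.58 ± 0.18 and an edgeR adjusted p of 0.0187. Il11, a cytokine of the IL-6 family, held 22.1 and 25.6 CPM against 4.36 and 4.65 CPM in control cells and 7.37 and 8.57 CPM against 5.91 and 5.20 CPM in m.11,944 60% cells, with an interaction of 1.88 ± 0.22 at the same adjusted p. The immediate early factor Jun held 268 and 270 CPM against 182 and 170 CPM in control cells but 109 and 112 CPM against 152 and 178 CPM in m.11,944 60% cells, so that its direction was opposite in the lines. The interaction of Jun was 1.19 ± 0.14 (edgeR adjusted p = 0.0187). Pvr, the poliovirus receptor CD155, and Spp1, osteopontin, had interactions of 1.31 ± 0.15 and 0.87 ± 0.11, with edgeR adjusted p of 0.0187 and 0.0381.

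Those more negative in m.11,944 60% cells were led by Oaf, Zfp207, Apex1, Epm2aip1 and the unnamed gene model Gm11816. Zfp207, a spindle checkpoint protein, held 84.1 and 77.7 CPM against 295 and 287 CPM in control cells and 151 and 152 CPM against 251 and 268 CPM in m.11,944 60% cells, an interaction of −1.07 ± 0.12 (edgeR adjusted p = 0.0187). Apex1, the apurinic endonuclease of base excision repair, had one of −0.95 ± 0.12 (edgeR adjusted p = 0.0381). List calls are read against 0.31% of all genes called, and 7.57% with the replicate block. Of 31 immediate early genes 4 were called, each more positive in m.11,944 60% cells. With the block 21 of them were called, 19 more positive. Of the 46 DNA replication genes 0 were called, and 14 with the block, each more negative in m.11,944 60% cells. Of 47 integrated stress response genes 1 was called, Ppp1r15a, at 0.95 ± 0.14 (edgeR adjusted p = 0.0539), and 19 with the block, 3 of them more positive. Gene models that overlap or share sequence with others cannot be told apart here, since whether reads were counted by strand is not stated in the sources used here.

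**Figure D5:**
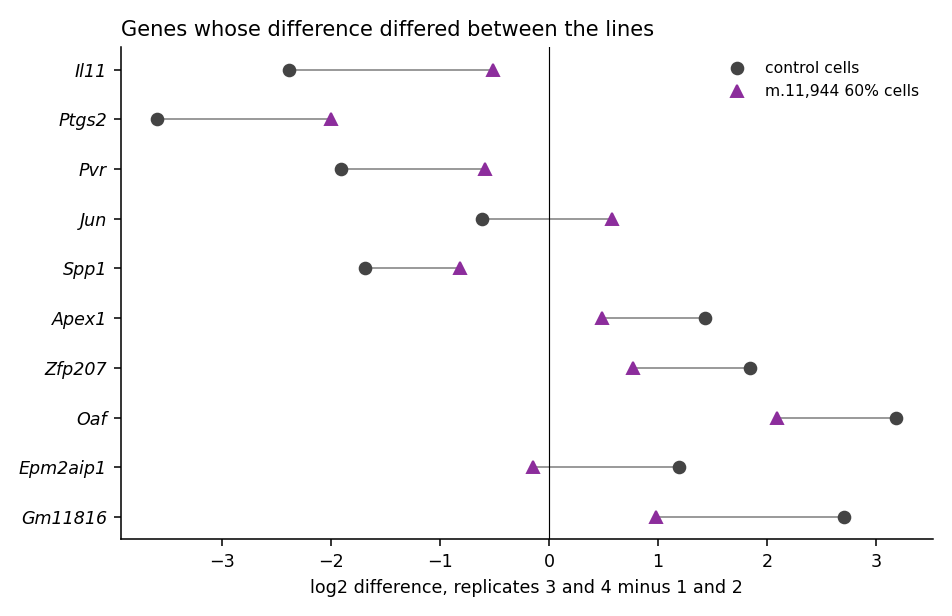
Log2 difference between replicates 3 and 4 and replicates 1 and 2 in control cells (circles) and m.11,944 60% cells (triangles) for the 10 genes with the smallest p of the interaction, 5 in each direction. The triangles lie nearer to 0 than the circles or on the other side of it, and Jun and Epm2aip1 have opposite signs in the lines.

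Replicates 3 and 4 also differed from each other, more than replicates 1 and 2 did. The median size of the difference between replicates 4 and 3 was 0.24 in control cells and 0.16 in m.11,944 60% cells, against 0.10 and 0.11 between replicates 2 and 1. In edgeR's test with line as a covariate, 522 genes (3.86%) passed an adjusted p of 0.1 between replicates 4 and 3, 279 (2.06%) higher in replicate 4 and 243 (1.8%) lower, with 2492 genes at an unadjusted p under 0.05. Between replicates 2 and 1 the test called 1 gene (0.00739%), and 241 had an unadjusted p under 0.05. That gene was Mki67, higher in replicate 2 by 0.82 (edgeR adjusted p = 0.0876). In 351 of the 522, the mean of replicate 4 lay between that of replicate 3 and that of replicates 1 and 2. The share of all genes lying so was not computed, and replicate 3 enters both comparisons, so nothing is drawn from this count. Of the 522, 253 were also counted higher or lower between the sides, where 13.7% of all genes were higher and 15.1% lower. The count was 36 without control replicate 4, 85 without control replicate 3 and 1370 without m.11,944 60% replicate 3, and 14 with no replicate block, that is with the line term dropped.

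The stress response was the list with the most calls between replicates 4 and 3. Of its 47 genes, 29 rose from replicate 3 to replicate 4 and 0 fell, with a median of 0.63, against 2.06% of all genes. Trib3 rose by 2.63 (edgeR adjusted p = 0.0045), Nupr1, a stress-induced chromatin protein, by 2.34 (adjusted p = 7.0e-05) and Aldh1l2 by 1.20 (adjusted p = 0.0019) in the same edgeR test. Gadd45a rose by 2.24 (edgeR adjusted p = 2.9e-05) and Gpt2, an alanine transaminase, by 2.01 (adjusted p = 4.7e-05). In each of these genes replicate 3 was lowest, replicate 4 next and replicates 1 and 2 highest, in both lines. Nupr1, whose promoter letters are printed above, held 40.3, 38.8, 1.68 and 9.60 CPM in control replicates 1 to 4 and 33.9, 35.3, 1.84 and 8.21 CPM in m.11,944 60% replicates 1 to 4. Higher in replicate 4 were 7 of 30 hypoxia targets, 7 of 28 cholesterol genes and 6 of 32 nutrient-limitation genes. Lower were 1 cholesterol gene and 0 hypoxia or nutrient-limitation genes.

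Mitochondrially encoded mRNAs ran the other way. Of 13, 7 were lower in replicate 4 than in replicate 3 and 0 higher, with a median of −0.76, against 1.8% of all genes lower. mt-Nd5 fell by 1.02 (edgeR adjusted p = 0.00079) and mt-Nd1 fell by 0.91 (edgeR adjusted p = 0.0012), and mt-Co1, a subunit of complex IV, held 1367, 1552, 2142 and 1399 CPM in control replicates 1 to 4. Ribosome biogenesis genes had 10 of 50 lower in replicate 4 and 0 higher, while 1 of 46 DNA replication genes was lower and 0 of 46 mitosis genes was called either way. Tafa5, a secreted protein, fell by 2.27 (edgeR adjusted p = 0.00077), at 9.20 and 9.51 CPM in replicate 3 and 1.73 and 2.16 CPM in replicate 4. Prl2c2 and Prl2c3, near-identical proliferin genes whose reads may be split uncertainly, also fell, with Prl2c2 at 42 and 73.4 CPM in replicate 3 against 6.31 and 9.03 CPM in replicate 4 and at most 1.21 CPM in replicates 1 and 2.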

How the data were processed

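Reads of cultured cells were aligned by the authors to GRCm39 with STAR in two-pass mode and counted per gene with featureCounts, and the deposited table holds raw read counts per gene, without normalization, for 56748 genes in 47 sample columns. The strand setting is not given in the sources used here. The 8 columns of control and m.11,944 60% cultures were used, and 39 other columns were not used here. Gene symbols and positions came from GENCODE vM39 (56017 genes matched), and promoter sequences from RefSeq.

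The analysis used edgeR 4.0.16 in R 4.3.3, with filterByExpr by line and side, TMM scaling, log2 CPM with a prior count of 2 and a robust quasi-likelihood test with Benjamini-Hochberg adjustment over 13532 genes, against the study's threshold of 0.1. All p values are two-sided. Total counts per culture ran from 25249060 to 36173502. The labels do not say whether cultures of a line were grown separately, so p values measure the spread between these cultures, which may be technical. No libraries were duplicates: the chi-square per degree of freedom between cultures of a line was at least 9.10.

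The replicate block pairs same-numbered cultures of the lines. The labels give the numbers only and do not say that such cultures were handled together. Deviations from the line mean correlated across genes at 0.687 to 0.814 between same-numbered cultures, which includes the side itself. Within a side, the differences of replicates 4 and 3 correlated at 0.35 between the lines and those of replicates 2 and 1 at 0.0768.

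Named genes were the first 2 of each list, the largest difference of each list with a mean of at least 2 log2 CPM, the 8 largest rises and falls with a mean of at least 3, and the 5 smallest p in each direction of each test; others are said to be chosen after their values were seen, or spell out a small count. Some genes the rule chose are not reported here. The division of the cultures, the 27 gene lists and the rule were chosen with earlier results of these data known. Alternatives were limma-voom 3.58.1, DESeq2 1.42.0, its size factors, total counts, other filters, a prior count of 0.25, other thresholds, the replicate block and leaving out cultures. The scripts were tested on simulated data.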

Additional observations from a re-analysis of the deposited data

Results flagged for a closer look

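Among 248 groups of 4 cultures (list levels, library measures and named genes within replicates 1 and 2 or within replicates 3 and 4), 10 held a culture whose gap to its neighbor exceeded Dixon's 95% limit for its share of the group's range, and chance flags about 1 in 20, or 12.4 of these. In replicates 1 and 2 these were the collagen and matrix list in m.11,944 60% replicate 2 (a gap of 0.842 of the range), the histone list in control replicate 2 (0.966), and m.11,944 60% replicate 1 for the ribosomal protein share of reads (0.862), Rps3 (0.895) and Hspa5 (0.854). In replicates 3 and 4 they were m.11,944 60% replicate 4 for the NF-kB list (0.978), Epm2aip1 (0.857) and Hk2 (0.878), and control replicate 3 for Hspa5 (0.869) and Inpp4b (0.842). The ribosomal protein share was 8.95% in m.11,944 60% replicate 1 and 9.69 to 9.81% in the other cultures of replicates 1 and 2.

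The differences between the sides were unequal in both lines by edgeR's interaction test for 15 named genes, each given as the difference in m.11,944 60% cells minus that in control cells on the log2 scale. More positive in m.11,944 60% cells were Il11 at 1.88, Egr1 at 1.76, Ptgs2 at 1.58, Pvr at 1.31, Jun at 1.19, Ppp1r15a at 0.95 and Spp1 at 0.87. More negative were Gm11816 at −1.76, Epm2aip1 at −1.34, Mxd3 at −1.15, Oaf at −1.09, Zfp207 at −1.07, Apex1 at −0.95, Eno1 at −0.91 and Hspa8 at −0.76. All 15 had adjusted p under 0.1, and 0 genes of the whole table did without either of replicates 1 and 2 of either line.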

How the results depend on the processing

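Counts of genes higher and lower in replicates 3 and 4 stayed within 1.5 times of 1853 and 2047 under DESeq2's size factors, total counts, other filters, a prior count of 0.25 and each culture left out (1798 to 1985 higher, 1945 to 2227 lower). They moved with the definition, to 528 and 796 at a threshold of 1 and to 3594 and 3514 for no overlap at any size. The alternatives without replicate 3 or without replicate 4 of both lines were chosen after seeing the data, and gave 1758 and 1967, and 2171 and 2422. The glycolysis median turned from −0.14 to 0.0085 without replicate 3 of both lines.

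The interaction count of 42 was 189 with DESeq2, 418 with no filter and 8 at an adjusted p under 0.05, and ran from 0 to 1486 with a culture left out. With the replicate block it was 1025. The count between replicates 4 and 3, 522, was 1287 with no filter, 136 at 0.05 and 14 with no replicate block (the line term dropped), and 36 to 1370 with a culture left out. Between replicates 2 and 1, the 1 call became 0 with limma-voom, with at least 10 reads in every culture, at 0.05 and with no replicate block, 16 with DESeq2 and 24 with no filter, and 0 to 5 with a culture left out. The cause of these shifts was not tested. Differences between the sides of at least 1 in size numbered 2167 by edgeR's fit with the replicate block, against 2024 by mean log2 CPM without it. Of 314 values of named genes in the tests, 249 kept their call and 65 lost it, with the direction kept in all.

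Leaving out a culture leaves 1 in a group of line and side, which is then taken to vary like the others. Genes under about 1 CPM, such as Fos or Ccn2, rest on few reads.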
